A study of Arabidopsis thaliana with 12 samples.

Results

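The genes described here are the 46 nuclear Arabidopsis genes that encode the light-harvesting antenna proteins, the nuclear-encoded subunits of the photosystems, the soluble electron carriers next to them and the small subunit of Rubisco, out of 32833 genes in the count table. They were chosen by gene name. They comprise 14 LHCB genes (antenna of photosystem II), 4 LHCA genes (antenna of photosystem I), 12 PSA genes (photosystem I subunits), 9 PSB genes (photosystem II subunits), 3 carrier genes (PETE1 and PETE2 for plastocyanin, FD2 for ferredoxin) and 4 RBCS genes.

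Photosystem I and photosystem II are thylakoid membrane complexes whose core subunits are encoded partly in the chloroplast and partly in the nucleus, whereas their chlorophyll a/b-binding antenna proteins come from the nucleus alone. LHCB1, LHCB2 and LHCB3 form the trimeric major antenna of photosystem II, and LHCB4, LHCB5 and LHCB6 are the monomeric minor antenna proteins that link it to the core. Rubisco, the enzyme that fixes CO2, joins small subunits made in the cytosol with large subunits made from the chloroplast gene rbcL.

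Poly(A) RNA was sequenced from whole seedlings of the Col-0 background, grown for 16 days on half-strength MS medium in constant light and kept on ice before freezing. The 4 genotypes were WT, se-1, cbp20 and cbp80, with 3 libraries each from different pools of plants. SE (SERRATE) is an RNA processing factor that works with the nuclear cap-binding complex, and CBP20 and CBP80 are the subunits of that complex. The mutants serve to ask which genes need SE or the cap-binding complex for their expression. se-1 is a hypomorphic allele, so SE function is reduced rather than absent, the cbp20 plants of the study carry the allele cbp20-1, and the cbp80 allele is not given in the sources used here.

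Each library held between 18565569 and 27068656 counted read pairs. CBP20 RNA was lower in cbp20 (12.3 CPM ± 1.21, SD, n = 3) than in WT (36.3 CPM ± 3.04, SD, n = 3). SE RNA in se-1 and CBP80 RNA in cbp80 were not called different from WT, so the RNA level of the mutated gene checks the label of the cbp20 libraries but not those of the other mutants. CPM are counts scaled by TMM to a common library total, so that libraries of unequal depth can be compared. A gene was called higher or lower when edgeR's quasi-likelihood test gave an adjusted p under 0.05 over all genes tested.

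The results turn on the LHCB1 and LHCB2 genes, since LHCB1.1 (AT1G29920) and LHCB1.2 (AT1G29910) were called higher in the mutants while their neighbour LHCB1.3 (AT1G29930) was not called. These 3 genes lie within one stretch of chromosome 1, at chr1:10474656-10475969 (LHCB1.1, minus strand), chr1:10472280-10473502 (LHCB1.2, minus strand) and chr1:10477885-10479114 (LHCB1.3, plus strand) of the TAIR10 assembly, and each consists of 1 exon without an intron. LHCB2.3 (AT3G27690) lies at chr3:10255906-10257489 on the plus strand and has 1 intron. The 250 bases before the annotated start of these 4 genes are shown here because they allow the upstream regions of a gene that moved and a gene that did not to be compared directly. They are chr1:10475970-10476219, chr1:10473503-10473752, chr1:10477635-10477884 and chr3:10255656-10255905, read 5′ to 3′ on the strand of the gene from the RefSeq copy of the genome. Capitals mark matches on either strand to the motif CCAAT, to the G-box, to the I-box and to the binding site of the clock factor CCA1.
LHCB1.1: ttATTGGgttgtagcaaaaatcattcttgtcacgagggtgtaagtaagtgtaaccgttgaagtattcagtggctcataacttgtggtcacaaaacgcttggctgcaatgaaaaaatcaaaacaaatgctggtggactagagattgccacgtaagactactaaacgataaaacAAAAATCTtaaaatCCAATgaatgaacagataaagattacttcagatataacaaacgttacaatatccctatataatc
LHCB1.2: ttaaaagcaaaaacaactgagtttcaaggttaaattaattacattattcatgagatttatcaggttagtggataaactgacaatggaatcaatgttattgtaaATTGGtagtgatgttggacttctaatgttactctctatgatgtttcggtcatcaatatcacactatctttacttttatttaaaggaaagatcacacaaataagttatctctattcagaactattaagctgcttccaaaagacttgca
LHCB1.3: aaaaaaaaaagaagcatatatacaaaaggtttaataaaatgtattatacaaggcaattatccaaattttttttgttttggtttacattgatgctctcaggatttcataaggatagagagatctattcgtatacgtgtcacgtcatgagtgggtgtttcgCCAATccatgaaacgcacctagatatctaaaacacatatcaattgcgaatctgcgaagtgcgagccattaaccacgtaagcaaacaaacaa
LHCB2.3: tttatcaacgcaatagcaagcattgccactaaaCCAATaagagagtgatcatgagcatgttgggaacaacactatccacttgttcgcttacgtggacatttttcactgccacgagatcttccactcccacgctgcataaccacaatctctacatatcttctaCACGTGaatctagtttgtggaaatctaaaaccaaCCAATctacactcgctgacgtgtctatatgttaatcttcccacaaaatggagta

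CCAAT was found before all 4 genes, LHCB1.1 alone of them held the CCA1 site, LHCB2.3 alone held a G-box, and none held an I-box. Over the 46 genes, CCAAT was present before 30 (65.2%) against 46% of the 27443 protein-coding genes with a full upstream window. It was present before 13 of the 14 LHCB genes, all but LHCB6, and before all 4 LHCA genes, but before 2 of the 9 PSB genes (PSBQ-2 and PSBX) and 2 of the 4 RBCS genes. The G-box (letters CACGTG) was present before 9 of the 46 genes (19.6%, against 6.49% of all upstream regions). The I-box (letters GATAAG) was present before 11 (23.9%, against 12.3%). The CCA1 site (letters AAAAATCT) was present before 5 (LHCB1.1, LHCB1.4, LHCA4, PSAN and PSAO, 10.9% against 6.69%). The evening element (AAAATATCT), another clock-related motif, was present before 0 of the 46 genes and before 2.36% of all upstream regions. A match describes these letters in these windows and was not tested as a site.

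How well the paralogs can be told apart sets what their counts mean. Over their coding sequences LHCB1.1 and LHCB1.3 differ at 31 of 804 bases (96.1% identity), LHCB1.2 and LHCB1.3 at 29 (96.4%), and LHCB1.1 and LHCB1.2 at 35 (95.6%). LHCB2.1 and LHCB2.2 differ at 27 of 798 bases (96.6%), and RBCS1B and RBCS2B at 15 of 546 (97.3%). None of the windows of 150 bases, the read length, in the exons of LHCB1.1, LHCB1.2 or LHCB1.3 occurred without a mismatch in the exons of another gene. Windows that match another gene with mismatches were not searched. Of the 46 genes only 4 had any shared window: LHCB2.1 and LHCB2.2 with each other (0.239% and 0.302% of their windows), and RBCS1B and RBCS3B with each other (4.64% and 6.42%). Reads were counted without strand, and a pair touching exons of more than one gene was dropped. The exons of 16 of the 46 genes overlap those of a neighbour, by 61.4% of their bases in PSAG, 53.3% in PSAH-1, 40.6% in LHCB2.3 and 34.1% in PSAE-1, so the levels of these genes are understated while a change between genotypes rests on their remaining bases. LHCB1.5, at chr2:14522524-14523568, is covered for 100% of its exon bases by genes on the other strand, mainly the antisense gene AT2G08665. It had 0 counts in all 12 libraries, where the limit that a count of 0 allows is 0.111 to 0.162 CPM per library for counting error only, and the counting rule gives no measure of its expression. The other 45 genes passed the filter of at least 10 counts in at least 3 libraries in every comparison.

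In WT the genes differed widely in level per kilobase of exon. LHCB1.3 had the highest level, 12752 CPM per kb ± 423 (SD, n = 3), and LHCB4.3 the lowest of the 45, 4.2 CPM per kb ± 1.05. RBCS1A followed LHCB1.3 with 3754 CPM per kb ± 349 and PSAD-1 came next with 3386 ± 835, a difference within their spread. Within the other classes of photosystem subunits the highest and lowest levels were those of LHCA1 (1673 CPM per kb ± 48.0) and LHCA2 (1142 ± 41.4) in the LHCA class, PSAH-1 at the low end of the PSA class (104 ± 9.70), and PSBR (2416 ± 104) and PSBW (301 ± 25.2) in the PSB class. PETE2 (1523 CPM per kb ± 141) exceeded PETE1 (154 ± 14.8), and RBCS1B was the lowest RBCS gene (382 ± 64.6).

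The first question was how these genes stood in se-1. Of the 45 genes tested, 27 were higher and 1 was lower in se-1 than in WT, where 17.6% of all 20491 genes tested were higher and 16.2% lower. The median log2 fold change was 0.37 over the 45 genes and -0.004 over all genes tested. Scaling by library size alone, in place of TMM, left 27 genes higher and 1 lower here, but turned the split over all genes from 3602 higher and 3319 lower to 2649 higher and 5077 lower. Among the 1969 other genes with a mean of at least 100 CPM, which all of the 45 genes except LHCB4.3 also had in WT, 27.2% were higher and 15.6% lower. In whole seedlings, more RNA per cell and more cells of a green type cannot be told apart.

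In cbp20, 15 of the 45 genes were higher and 0 lower than in WT, against 10.2% higher and 9.48% lower over all genes tested. No gene was lower at an unadjusted p under 0.05 with edgeR either (0 genes), and DESeq2 called 0 lower and 16 higher. In cbp80, 23 genes were higher and 3 lower, against 20.1% and 18.6% over all genes tested. Among the other genes of at least 100 CPM, 15.9% were higher and 6.81% lower in cbp20, and 30.3% and 15.5% in cbp80. The median log2 fold change of the 45 genes was 0.15 in cbp20 and 0.24 in cbp80, beside -0.001 and -0.008 over all genes tested. Library size alone gave 12 higher and 0 lower in cbp20, and 19 higher and 5 lower in cbp80. Over all genes it moved the calls from 2090 higher and 1941 lower to 1676 and 2608 in cbp20, and from 4125 and 3830 to 3130 and 5530 in cbp80. The 3 comparisons share the WT libraries, so their calls are not independent of each other. They are given side by side: 15 genes were higher in every mutant, of which 12 encode antenna proteins and the others are PSAD-2, PSBY and PETE1, and 15 were called by edgeR in none of them, of which DESeq2 called PETE2 in se-1 and cbp80 and FD2 in cbp80.

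Counts on the 46 genes took 7.18% to 7.45% of each WT library, 9.39% to 10.2% of each se-1 library, 7.65% to 9.34% of the cbp20 libraries and 8.09% to 8.36% of the cbp80 libraries. Every mutant library was above every WT library. The cbp20 libraries spread most, and cbp20 replicate 2 was the highest of them.

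**Figure D1:**
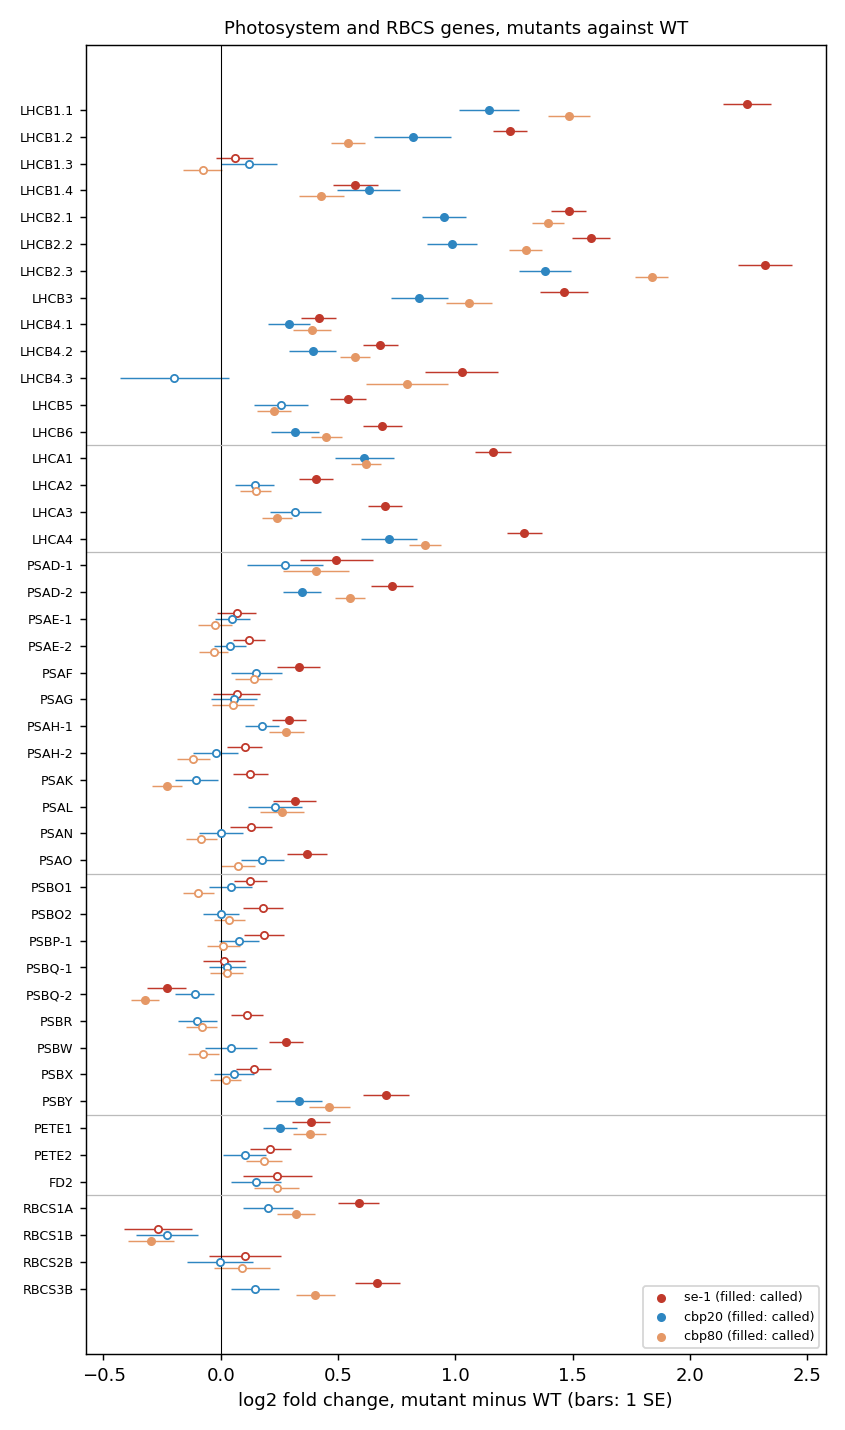
The log2 fold change of the 45 testable genes in each mutant against WT (x axis, mutant minus WT, bars of 1 SE, n = 3 libraries per genotype), grouped from top to bottom as LHCB, LHCA, PSA, PSB, carriers and RBCS; filled points were called by edgeR. The antenna genes at the top reach 2.32 in se-1, while most PSA and PSB points lie near 0 and LHCB1.3 is open in all 3 mutants.

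The antenna genes carried the largest changes. Of the 17 LHCB and LHCA genes tested, 16 were higher in se-1, 15 in cbp80 and 12 in cbp20, and 0 were lower in any mutant (0 at an unadjusted p under 0.05 with edgeR and 0 with DESeq2). Their median log2 fold change was 1.03 in se-1, 0.57 in cbp80 and 0.61 in cbp20. Over the other 28 genes the counts were 11 higher and 1 lower in se-1, 3 higher and 0 lower in cbp20, and 8 higher and 3 lower in cbp80, with medians of 0.18, 0.06 and 0.04. Over all genes tested, 17.6% were higher and 16.2% lower in se-1, 10.2% and 9.48% in cbp20, and 20.1% and 18.6% in cbp80. Among genes of at least 100 CPM outside the set, 27.2%, 15.9% and 30.3% were higher in that order. The higher count of the 28 genes thus lay near the all-gene share in cbp20. In cbp80 it lay near the share of the genes of at least 100 CPM.

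LHCB1.1, one of the genes of the most abundant antenna protein, stood at 1717, 1496 and 1962 CPM in the 3 WT libraries and at 7688, 8588 and 8182 CPM in those of se-1. In cbp20 the libraries gave 3624, 4535 and 3267 CPM, and in cbp80 4720, 4903 and 4840 CPM. No mutant library overlapped WT, and the order se-1, cbp80, cbp20, WT held for the means, with cbp20 replicate 2 close to cbp80. The log2 fold change was 2.24 ± 0.10 (SE) in se-1 (4.73-fold, edgeR adjusted p = 1.86e-08), 1.144 ± 0.13 in cbp20 (2.21-fold, edgeR adjusted p = 2.58e-05) and 1.48 ± 0.09 in cbp80 (2.798-fold, edgeR adjusted p = 1.63e-08).

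LHCB1.3, the most abundant gene of the whole set, differed little from WT in the same libraries. It stood at 15086, 16020 and 15949 CPM in WT, at 16666, 16204 and 16069 CPM in se-1, at 16218, 19417 and 15550 CPM in cbp20 and at 16066, 14686 and 13794 CPM in cbp80. The cbp20 and cbp80 libraries overlapped those of WT, and the se-1 libraries lay just above them. Its log2 fold change was 0.06 ± 0.08 (SE) in se-1 (edgeR adjusted p = 0.608), 0.12 ± 0.12 in cbp20 (edgeR adjusted p = 0.533) and -0.08 ± 0.08 in cbp80 (edgeR adjusted p = 0.482), and its sign in se-1 turned to -0.03 with library size alone.

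LHCB1.2 and LHCB1.4, which encode the same kind of protein, lay between these. LHCB1.2 averaged 1220 CPM ± 57.1 (SD, n = 3) in WT, 2865 ± 106 in se-1, 1777 ± 135 in cbp80 and 2151 ± 695 in cbp20. All mutant libraries were above those of WT, and cbp20 replicate 2 (2932 CPM) stood apart from the other cbp20 libraries (1921 and 1599 CPM). LHCB1.4, on chromosome 2, rose by 0.57 ± 0.10 on the log2 scale in se-1, 0.43 ± 0.10 in cbp80 and 0.63 ± 0.13 in cbp20 (edgeR adjusted p = 0.00061, 0.00273 and 0.00416 in that order).

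The unequal changes altered the make-up of the LHCB1 counts. LHCB1.3 held 80.0% ± 1.499 (SD, n = 3) of the counts of the 4 measurable LHCB1 genes in WT, 56.7% ± 0.96 in se-1, 65.2% ± 1.34 in cbp80 and 69.7% ± 2.03 in cbp20. The share of LHCB1.1 was 8.79% ± 1.06 in WT and 28.3% ± 1.56 in se-1, with 21.2% ± 1.52 in cbp80 and 15.5% ± 0.43 in cbp20. The shares do not depend on the scaling between libraries. Their sum moved less than LHCB1.1 did, from 19612 CPM ± 732 in WT to 28789 ± 144 in se-1, 22767 ± 1302 in cbp80 and 24540 ± 3727 in cbp20.

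**Figure D2:**
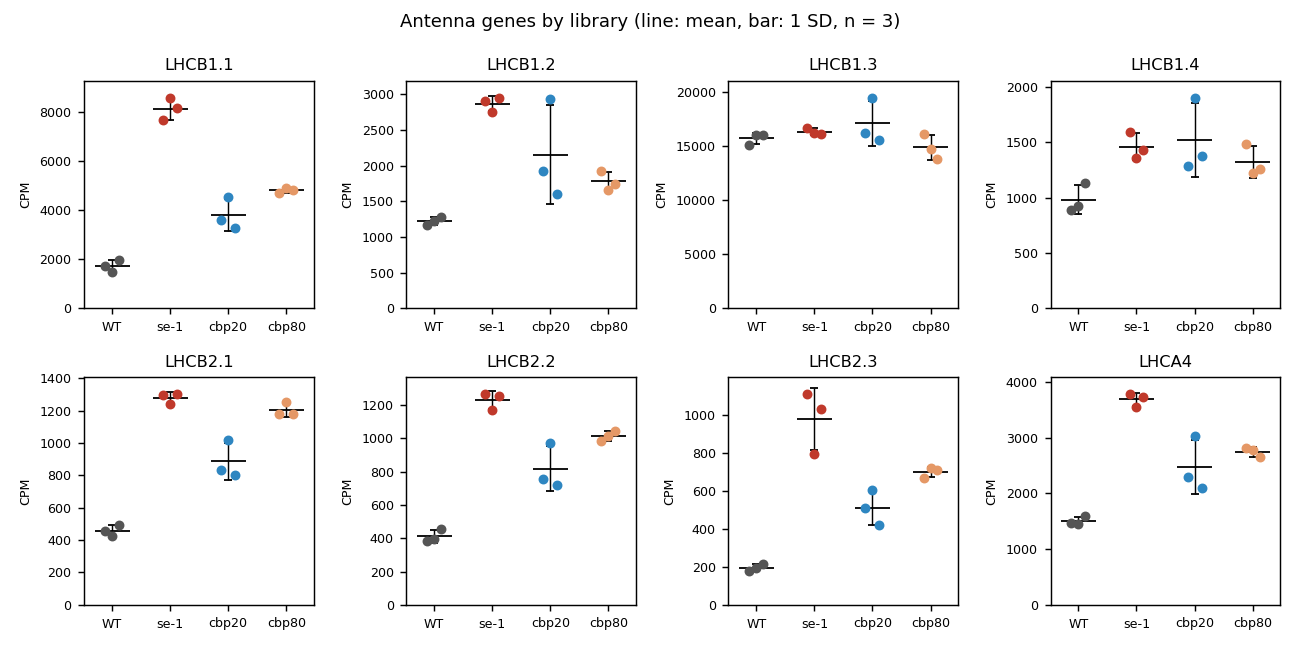
Level in CPM (y axis, from 0, a scale per gene) of the 4 measurable LHCB1 genes, the 3 LHCB2 genes and LHCA4 in each library of WT, se-1, cbp20 and cbp80; points are libraries, lines means and bars 1 SD (n = 3). LHCB1.1 is at most 1962 CPM among WT libraries and at least 7688 CPM among those of se-1, while LHCB1.3 stays between 13794 and 19417 CPM in all 12 libraries.

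**Figure D3:**
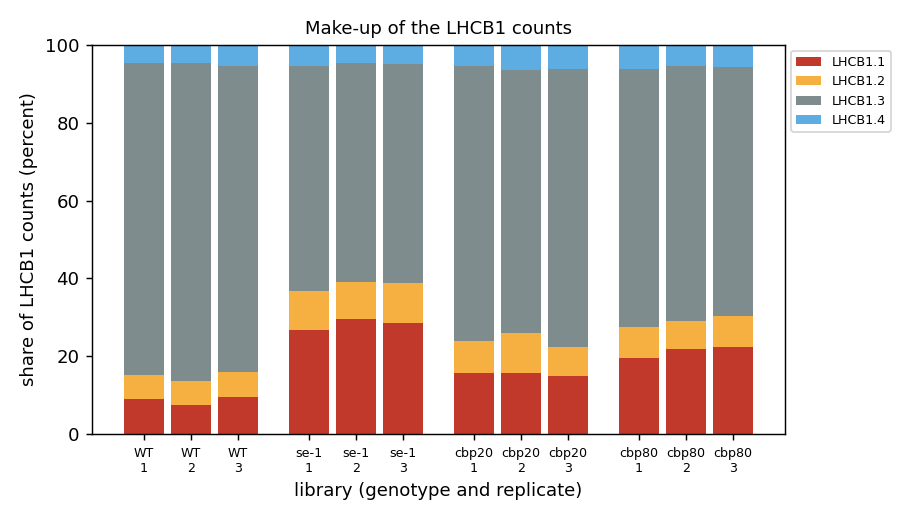
Share of the LHCB1 counts (y axis, percent) taken by LHCB1.1, LHCB1.2, LHCB1.3 and LHCB1.4 in each of the 12 libraries (x axis, genotype and replicate). LHCB1.3 takes 80.0% on average in WT and 56.7% in se-1, and LHCB1.1 fills most of the difference.

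The LHCB2 genes, which encode an antenna protein that is phosphorylated when antenna moves between the photosystems, were all higher in all 3 mutants. LHCB2.3 gave 180, 195 and 213 CPM in the WT libraries, 1110, 795 and 1032 CPM in se-1, 671, 719 and 711 CPM in cbp80, and 509, 606 and 420 CPM in cbp20. All mutant libraries lay above WT, and se-1 replicate 2 was lower than the other se-1 libraries. The log2 fold change of LHCB2.3 was 2.32 ± 0.11 (SE) in se-1 (edgeR adjusted p = 2.97e-08), 1.38 ± 0.11 in cbp20 (edgeR adjusted p = 1.32e-06) and 1.84 ± 0.07 in cbp80 (edgeR adjusted p = 2.89e-10), the largest of the 45 genes in each mutant. LHCB2.1 (AT2G05100) changed by 1.48 ± 0.07 in se-1, 1.395 ± 0.07 in cbp80 and 0.95 ± 0.09 in cbp20, and LHCB2.2 (AT2G05070) by 1.58 ± 0.08, 1.3 ± 0.07 and 0.99 ± 0.11 in the same order. LHCB2.3 thereby took 27.9% ± 2.78 of the LHCB2 counts in se-1, against 18.4% ± 0.81 in WT.

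LHCB3, the remaining subunit of the trimeric antenna, averaged 530 CPM ± 80.1 in WT and 1458 ± 108 in se-1, and its log2 fold change was 1.46 ± 0.10 (edgeR adjusted p = 4.37e-07). It was also higher in cbp20 (0.85 ± 0.12) and cbp80 (1.06 ± 0.10). The minor antenna genes LHCB4.1, LHCB4.2 and LHCB6 were higher in every mutant by less, with log2 fold changes of 0.42, 0.68 and 0.69 in se-1, 0.39, 0.57 and 0.45 in cbp80, and 0.29, 0.39 and 0.32 in cbp20. LHCB5 was higher in se-1 (0.54 ± 0.08) and cbp80 (0.23 ± 0.07) and had 0.26 ± 0.12 in cbp20 (edgeR adjusted p = 0.147). The call of LHCB4.2 in cbp20 was lost without WT replicate 2 (0.38), and that of LHCB4.1 without cbp20 replicate 1 or 3 or WT replicate 1 or 2 (0.22 to 0.32). The call of LHCB6 in cbp20 was lost without cbp20 replicate 1 or 2 or any WT library (0.18 to 0.36), and that of LHCB5 in cbp80 without cbp80 replicate 1 or 2 or WT replicate 1 or 2 (0.18 to 0.22). With library size alone LHCB4.1 and LHCB6 in cbp20 (0.25 and 0.27) and LHCB5 in cbp80 (0.15) also lost their calls. LHCB5 lost its call in cbp80 in the fit of all 12 libraries as well (0.23). LHCB4.3, whose coding sequence shares only 65.7% with LHCB4.1, stood at 7.51, 6.26 and 4.49 CPM in the WT libraries, 13, 10.96 and 13.3 CPM in se-1, 8.86, 13.1 and 9.66 CPM in cbp80, and 5.87, 3.21 and 6.93 CPM in cbp20. It was higher in se-1 (1.03 ± 0.16, edgeR adjusted p = 0.000281) and in cbp80 (0.79 ± 0.18, edgeR adjusted p = 0.00264), and cbp20 overlapped WT.

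Of the photosystem I antenna genes, LHCA1 (AT3G54890) and LHCA4 (AT3G47470) had larger fold changes than LHCA2 and LHCA3 in every mutant, a difference between genes that was not tested. LHCA4 gave 1473, 1452 and 1591 CPM in the WT libraries, 3779, 3549 and 3735 CPM in se-1, 2817, 2787 and 2649 CPM in cbp80, and 2287, 3031 and 2106 CPM in cbp20. All mutant libraries were above WT. LHCA4 rose by 1.295 ± 0.07 on the log2 scale in se-1 (edgeR adjusted p = 7.49e-08), and its dimer partner LHCA1 by 1.16 ± 0.08 (edgeR adjusted p = 2.93e-07). LHCA2 and LHCA3, which form the other dimer of the antenna belt, rose by 0.41 ± 0.07 and 0.70 ± 0.07 in se-1. In cbp20 only LHCA1 (0.61 ± 0.13) and LHCA4 (0.72 ± 0.12) of the 4 were called by edgeR, and in cbp80 LHCA1 (0.62 ± 0.07), LHCA3 (0.24 ± 0.07) and LHCA4 (0.87 ± 0.07). LHCA3 lost its call in cbp80 without WT replicate 2 (0.20), with library size alone (0.16) and in the fit of all 12 libraries (0.24). LHCA3 in cbp20 had 0.32 ± 0.11 (edgeR adjusted p = 0.0571), with all cbp20 libraries above WT, and was called there by DESeq2, with the replicate block, without a filter and in the fit of all 12 libraries. LHCA2 in cbp80 had 0.15 ± 0.07 (edgeR adjusted p = 0.0899) and was called by DESeq2. The summed level of the 4 genes was 7135 CPM ± 247 in WT, 13639 ± 634 in se-1, 10035 ± 171 in cbp80 and 9865 ± 1747 in cbp20.

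Among the 12 photosystem I subunits, 6 were higher in se-1, 4 in cbp80 and 1 in cbp20. Over all genes tested 17.6%, 20.1% and 10.2% were higher, and over other genes of at least 100 CPM 27.2%, 30.3% and 15.9%. The count in cbp80 thus lay near the latter share and that in cbp20 below both. Only PSAK, a subunit at the edge where LHCA proteins bind, was lower (in cbp80 alone, -0.23 ± 0.06, edgeR adjusted p = 0.012). Without cbp80 replicate 2 or 3 that call was lost (-0.21 and -0.20). PSAD-2, which encodes the stromal subunit that docks ferredoxin, gave 1047, 1036 and 961 CPM in WT libraries, with 1818, 1451 and 1772 CPM in the se-1 libraries. Its libraries did not overlap WT in any mutant, and it was higher in all 3 (0.73 ± 0.09, 0.35 ± 0.08 and 0.55 ± 0.06 in se-1, cbp20 and cbp80). Its paralog PSAD-1 gave 4486, 4281 and 2753 CPM in WT, where replicate 3 stood far below the others. PSAD-1 was called higher in se-1 (0.49 ± 0.16, edgeR adjusted p = 0.0279) and cbp80 (0.40 ± 0.14, edgeR adjusted p = 0.0352), and without WT replicate 3 the values were 0.30 (edgeR adjusted p = 0.0561) and 0.21 (edgeR adjusted p = 0.063). The call in se-1 was also lost without se-1 replicate 1 or 3, that in cbp80 without cbp80 replicate 2 or 3 or with library size alone (0.33), and DESeq2 made neither. PSAF, a docking subunit for plastocyanin, PSAL, PSAO and PSAH-1 were higher in se-1 by 0.29 to 0.37. The call of PSAF was lost without se-1 replicate 1 or 3 (0.28 and 0.34), and that of PSAL without these or WT replicate 3 (0.23 to 0.33). In cbp80 PSAH-1 (0.28 ± 0.07) and PSAL (0.26 ± 0.09) were higher, and PSAL lost its call without cbp80 replicate 1 or 2 or WT replicate 2 or 3 (0.17 to 0.29). PSAL also lost it with library size alone (0.19) and in the fit of all 12 libraries (0.26). PSAE-1, PSAE-2, PSAG, PSAH-2 and PSAN were called in no mutant in the main fits, with log2 fold changes between -0.12 and 0.13. With library size alone PSAH-2 was called lower in cbp80.

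Of the 9 photosystem II subunits, 2 were higher and 1 lower in se-1, 1 and 1 in cbp80, and 1 higher in cbp20, with median log2 fold changes of 0.14, 0.01 and 0.04. Over all genes tested, 17.6%, 20.1% and 10.2% were higher in that order. None of these higher counts exceeded the share of other genes of at least 100 CPM (27.2%, 30.3% and 15.9%). PSBO1, PSBO2, PSBP-1 and PSBQ-1, which build the oxygen-evolving complex on the lumenal side, were called in no mutant in the main fits, and their log2 fold changes there lay between -0.10 and 0.18. PSBP-1 was called higher in se-1 with the replicate block and without se-1 replicate 2, and PSBO2 without se-1 replicate 2. PSBO1 was called lower in cbp80 with library size alone. PSBQ-2, the second gene of the PSBQ subunit, gave 1326, 1300 and 1295 CPM in the WT libraries, 1215, 972 and 1147 CPM in se-1, 1054, 1046 and 1032 CPM in cbp80, and 1155, 1349 and 1126 CPM in cbp20. The libraries of se-1 and cbp80 lay below those of WT and cbp20 overlapped them. PSBQ-2 fell by 0.32 ± 0.06 on the log2 scale in cbp80 (edgeR adjusted p = 0.000655) and by 0.23 ± 0.08 in se-1 (edgeR adjusted p = 0.0491), where the call is lost when se-1 replicate 2 is left out (-0.14, edgeR adjusted p = 0.16). Leaving out se-1 replicate 3 or any WT library also ended it, as did RLE scaling and a filter of 1 CPM in 3 libraries (-0.23 in each). PSBY, a small membrane subunit, was the one gene of the class that was higher in every mutant, by 0.71 ± 0.10 in se-1, 0.46 ± 0.09 in cbp80 and 0.33 ± 0.10 in cbp20, and its call in cbp20 was lost without cbp20 replicate 1 or 2 or WT replicate 2 or 3 (0.25 to 0.31). PSBW was higher in se-1 (0.28 ± 0.07), and PSBR and PSBX were called in no mutant. Of the carriers, PETE1 was higher in every mutant (se-1 0.39 ± 0.08, cbp20 0.25 ± 0.07, cbp80 0.38 ± 0.07), whereas PETE2, at the higher level per kilobase, and FD2 were not called by edgeR. DESeq2 called PETE2 in se-1 and cbp80 and FD2 in cbp80, where edgeR gave PETE2 0.21 ± 0.09 and 0.18 ± 0.08 (edgeR adjusted p = 0.0817 and 0.0723) and FD2 0.24 ± 0.09 (edgeR adjusted p = 0.0611). The call of PETE1 in cbp20 was lost without cbp20 replicate 1 or 2 or WT replicate 1 or 3 (0.18 to 0.26), and with library size alone (0.21).

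The RBCS genes did not move together. RBCS1A, the main gene of the family, gave 5265, 4442 and 4574 CPM in the WT libraries, 7640, 6945 and 6841 CPM in se-1, 5887, 6254 and 5683 CPM in cbp80 and 6067, 5141 and 5188 CPM in cbp20. The se-1 and cbp80 libraries lay above WT and cbp20 overlapped it. RBCS1A rose by 0.59 ± 0.09 on the log2 scale in se-1 (edgeR adjusted p = 0.000249) and 0.32 ± 0.08 in cbp80 (edgeR adjusted p = 0.00619), and RBCS3B by 0.67 ± 0.10 and 0.40 ± 0.08 (edgeR adjusted p = 0.000194 and 0.0016). RBCS1B, which neighbours RBCS2B and RBCS3B on chromosome 5, gave 851, 714 and 607 CPM in the WT libraries, 747, 488 and 566 CPM in se-1, 605, 615 and 547 CPM in cbp80, and 736, 504 and 610 CPM in cbp20. All 3 mutants overlapped WT. RBCS1B was called lower in cbp80 (-0.30 ± 0.10, edgeR adjusted p = 0.0289), a call that did not hold in the fit of all 12 libraries (edgeR adjusted p = 0.126) or without cbp80 replicate 1 or 3 or WT replicate 1 or 2 (-0.31 to -0.17), and had -0.27 ± 0.14 in se-1 and -0.23 ± 0.13 in cbp20. Without se-1 replicate 1 it was called lower in se-1 as well (-0.45, edgeR adjusted p = 0.0155). RBCS2B was called in no mutant in the main fits, but was called in cbp80 without WT replicate 1. In cbp20, 0 of the 4 genes were called, 0 passed an unadjusted p under 0.05 with edgeR and DESeq2 called 0.

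As a share of the RBCS counts, RBCS1B took 9.70% ± 0.81 (SD, n = 3) in WT, 5.68% ± 0.77 in se-1, 6.59% ± 0.15 in cbp80 and 7.52% ± 0.73 in cbp20. Every mutant library was below every WT library in this share (at most 8.003% against at least 8.76%), whatever the scaling. RBCS1A took 64.1% ± 1.71 in WT and 68.2% ± 2.00 in se-1, ranges that do not overlap (62.8% to 66.0% and 66.3% to 70.3%).

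**Figure D4:**
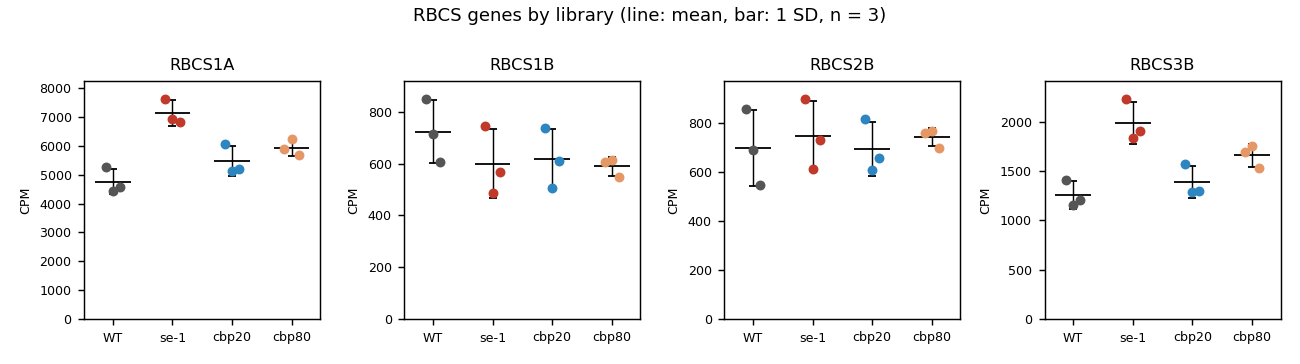
Level in CPM (y axis, from 0, a scale per gene) of the 4 RBCS genes in each library of WT, se-1, cbp20 and cbp80, with the mean (line) and 1 SD (bar, n = 3). RBCS1A and RBCS3B lie higher in se-1 than in WT, with RBCS1A at 6841 CPM or more, while RBCS1B and RBCS2B overlap WT in every mutant.

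The mutants were then set against each other in a fit of all 12 libraries. Between se-1 and cbp20, 16 of the 45 genes were higher in se-1 and 0 lower (0 at an unadjusted p under 0.05 with edgeR, 0 with DESeq2), against 7.40% higher and 6.24% lower over all genes tested. Between se-1 and cbp80, 11 were higher in se-1 and 0 lower (again 0 unadjusted and 0 with DESeq2), against 5.49% and 5.96%. Between cbp80 and cbp20, 4 were higher in cbp80 and 0 lower (2 at an unadjusted p under 0.05, 0 with DESeq2), against 5.99% and 4.17%. Among other genes of at least 100 CPM, 10.7% were higher and 9.4% lower between se-1 and cbp20. The shares were 6.35% and 9.7% between se-1 and cbp80, and 9.6% and 5.08% between cbp80 and cbp20. The 4 genes higher in cbp80 than in cbp20 thus made up a share near that of other genes of at least 100 CPM. The genes higher in se-1 than in cbp20 were 7 LHCB genes, the 4 LHCA genes, PSAD-2, PSBR, PSBY, RBCS1A and RBCS3B, and those higher in se-1 than in cbp80 were 4 LHCB genes, the 4 LHCA genes, PSAK, PSAO and PSBW. Library size alone gave 15, 11 and 3 higher in these comparisons, and over all genes it moved the calls from 1545 higher and 1302 lower to 1237 and 1869 between se-1 and cbp20, and from 1251 and 870 to 1018 and 1146 between cbp80 and cbp20.

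LHCB1.1 was higher in se-1 than in cbp20 by 1.098 ± 0.11 on the log2 scale (edgeR adjusted p = 6.74e-06) and than in cbp80 by 0.76 ± 0.11 (edgeR adjusted p = 0.000318). All 4 LHCA genes were higher in se-1 than in either of the other mutants, led by LHCA4 against cbp20 (0.58 ± 0.10) and LHCA1 against cbp80 (0.54 ± 0.11). Against cbp20, LHCA2 lost its call without se-1 replicate 1 or cbp20 replicate 1 or 3 (0.21 to 0.25), and LHCA3 without se-1 replicate 3 or cbp20 replicate 1 or 3 (0.30 to 0.35). LHCA2 also lost it in the fit of the 6 se-1 and cbp20 libraries (0.26). Against cbp80, LHCA2 lost it without se-1 replicate 1 or 2 or any cbp80 library (0.21 to 0.28), and LHCA4 without cbp80 replicate 3 (0.40). PSBR, at 0.21 ± 0.07 against cbp20 (edgeR adjusted p = 0.0469), lost its call with library size alone, without a filter, in the fit of those 6 libraries, and without any se-1 library or cbp20 replicate 1 or 3 (0.17 to 0.22). LHCB6 (0.37 ± 0.10 against cbp20) lost it in the fit of those 6 libraries and without se-1 replicate 1 or 3 or cbp20 replicate 1 or 3 (0.28 to 0.35), and PSBY (0.37 ± 0.09) without cbp20 replicate 3 (0.33). Against cbp80, LHCB3 and PSAO lost their calls without se-1 replicate 1 or 3 or cbp80 replicate 1 or 2, PSBW without those or cbp80 replicate 3, and LHCB2.3 without se-1 replicate 1 or 3 or cbp80 replicate 1. DESeq2 did not call LHCB3 there. LHCB1.2 was higher in se-1 than in cbp80 (0.69 ± 0.15, edgeR adjusted p = 0.00564), and LHCB2.3 and LHCB4.3 than in cbp20 (0.94 ± 0.12 and 1.22 ± 0.22). RBCS1A and RBCS3B were higher in se-1 than in cbp20 by 0.39 ± 0.09 and 0.52 ± 0.10. Between cbp80 and cbp20 the called genes were LHCB2.1 (0.44 ± 0.08), LHCB2.2 (0.31 ± 0.10), LHCB2.3 (0.45 ± 0.12) and the low LHCB4.3 (0.99 ± 0.22). LHCB2.1 alone kept its call under all 14 alternatives. LHCB2.2 lost it with library size alone, in the fit of those 6 libraries, and without any cbp80 library or cbp20 replicate 1 or 3 (0.23 to 0.33). LHCB2.3 lost it without cbp80 replicate 2 or 3 or cbp20 replicate 1 or 3 (0.33 to 0.45), and LHCB4.3 without cbp80 replicate 2 (0.81). The counts against cbp80 rest on single libraries: leaving out se-1 replicate 1 or cbp80 replicate 1 left 6 genes higher in se-1, and leaving out se-1 replicate 3 or cbp80 replicate 2 left 7. The count between cbp80 and cbp20 was 1 without cbp80 replicate 2, 2 without cbp80 replicate 3 or cbp20 replicate 3, and 7 without cbp20 replicate 2.

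Gene structure differed among the members without having been used to choose them. Introns here are the gaps left after all annotated exons of a gene were merged. An intron that is exon in another transcript of the gene is therefore not counted. The paper instead took intron numbers from isoform 1 of each gene. Of the 13 testable genes without an intron, 8 were higher and 0 lower in se-1, 8 and 0 in cbp80, and 7 and 0 in cbp20. Of the 32 genes with introns, 19 were higher and 1 lower in se-1, 15 and 3 in cbp80, and 8 and 0 in cbp20. The shares over all genes tested were 17.6% higher and 16.2% lower in se-1, 20.1% and 18.6% in cbp80, and 10.2% and 9.48% in cbp20. They were not taken separately for genes with and without introns. Within the antenna genes, 4 of 5 without introns and 12 of 12 with introns were higher in se-1, with median log2 fold changes of 0.68 and 1.09. In cbp80 these were 4 of 5 and 11 of 12 (medians 0.54 and 0.71). The order of the medians was the other way in cbp20, with 4 of 5 and 8 of 12 (0.63 and 0.47). Among the other 28 genes, 4 of 8 without and 7 of 20 with introns were higher in se-1 (0.31 and 0.13). The counts there were 4 of 8 and 4 of 20 in cbp80 (0.31 and -0.007), and 3 of 8 and 0 of 20 in cbp20 (0.20 and 0.04). The genes with the largest changes were of both kinds, LHCB1.1 without and LHCB2.3 with an intron, and the difference between the kinds was not tested.

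The other genes of the pathway were taken as lists, to be read against the shares given above for all genes (17.6% higher in se-1, 20.1% in cbp80 and 10.2% in cbp20) and for other genes of at least 100 CPM (27.2%, 30.3% and 15.9%). Of 15 genes of chlorophyll synthesis, 10 were higher and 2 lower in se-1, 6 and 0 in cbp20 (1 lower unadjusted with edgeR, 0 with DESeq2), and 7 and 2 in cbp80, with median log2 fold changes of 0.28, 0.21 and 0.10. CHLH, the large subunit of the magnesium chelatase that commits porphyrin to chlorophyll, gave 1149, 1138 and 1193 CPM in WT, with 2505, 2110 and 2398 CPM in the se-1 libraries. The groups did not overlap, and CHLH changed by 1.01 ± 0.08 in se-1, 0.81 ± 0.06 in cbp80 and 0.37 ± 0.08 in cbp20. CAO, which makes the chlorophyll b bound by antenna proteins, was higher in all 3 (se-1 0.75 ± 0.08, cbp20 0.42 ± 0.08, cbp80 0.67 ± 0.06). PORB and PORC, the light-dependent protochlorophyllide reductases of green leaves, went the other way, by -0.77 ± 0.08 and -0.51 ± 0.10 in se-1 and by -0.37 ± 0.07 and -0.40 ± 0.05 in cbp80. GUN4, a regulator of the chelatase, was counted at about 1 CPM, and 73.0% of its exon bases overlap another gene.

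GLK1 and GLK2 encode paired transcription factors known to promote antenna and chlorophyll genes. GLK1 gave 249, 246 and 239 CPM in the WT libraries, 143, 115 and 134 CPM in se-1, 184, 179 and 172 CPM in cbp80, and 203, 212 and 195 CPM in cbp20. It was lower in every library of every mutant, by -0.91 ± 0.08 in se-1 (edgeR adjusted p = 2.52e-06), -0.27 ± 0.06 in cbp20 (edgeR adjusted p = 0.00702) and -0.45 ± 0.06 in cbp80 (edgeR adjusted p = 1.83e-05). GLK2 was higher in each, from 154 CPM ± 3.78 in WT to 220 ± 13.6 in se-1, 330 ± 17.7 in cbp80 and 248 ± 7.77 in cbp20. CGA1, a GATA factor linked to chloroplast development, was higher in cbp20 (0.62 ± 0.09) and cbp80 (1.18 ± 0.08), with 0.12 ± 0.09 in se-1. Over the 14 regulators, 7 were higher and 1 lower in se-1, 11 and 2 in cbp80, and 5 and 1 in cbp20.

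**Figure D5:**
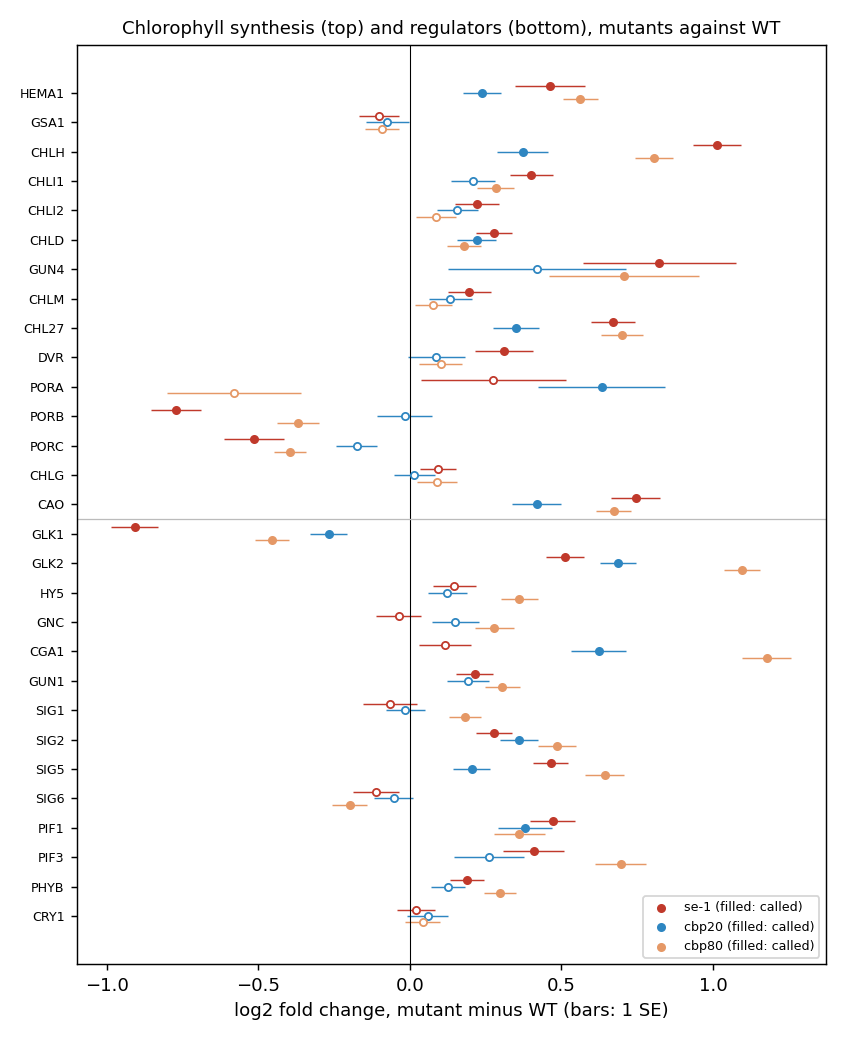
Log2 fold change in each mutant against WT (x axis, mutant minus WT, bars of 1 SE, n = 3 libraries per genotype) of 15 chlorophyll synthesis genes (top) and 14 regulators (bottom); filled points were called by edgeR. CHLH and CAO lie to the right in all 3 mutants, PORB and PORC to the left in se-1 and cbp80, and GLK1 and GLK2 lie on opposite sides of 0.

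Of 16 Calvin cycle genes, which act around Rubisco, 7 were higher and 1 lower in se-1, and 7 and 1 in cbp80. In cbp20, 0 were called in either direction with edgeR (1 higher and 1 lower unadjusted), and DESeq2 called 1 higher. The median log2 fold changes of this list were 0.15 in se-1, 0.14 in cbp80 and 0.03 in cbp20. RCA, Rubisco activase, averaged 5296 CPM ± 705 in WT, 8008 ± 449 in se-1, 9303 ± 1546 in cbp80 and 6329 ± 1391 in cbp20, and was higher in se-1 (0.60 ± 0.10) and cbp80 (0.81 ± 0.12). FBA1, a plastid aldolase, was also higher in these (0.56 ± 0.09 and 0.53 ± 0.07), and CFBP1, the plastid fructose bisphosphatase, was lower in cbp80 (-0.37 ± 0.06). Of 18 further thylakoid genes, 5 were higher and 1 lower in se-1, 1 and 0 in cbp20 (2 lower unadjusted with edgeR, 0 with DESeq2), and 5 and 2 in cbp80, so that the higher genes made up a share near that of other genes of at least 100 CPM in se-1 and cbp80. PSB27, an assembly factor of photosystem II, was the gene of that list higher in every mutant (se-1 0.65 ± 0.07, cbp20 0.32 ± 0.07, cbp80 0.39 ± 0.06). FD1, a second leaf ferredoxin gene, was higher in cbp80 (0.44 ± 0.12), and LHCA6, a minor antenna gene, was lower there (-0.38 ± 0.11).

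Markers of other cell types moved beside these results. Of 8 shoot markers of epidermis, guard cells and meristem, 6 were higher in se-1, 6 in cbp80 and 5 in cbp20, and 1 (CER6) was lower in each. Their summed level ranged from 1299 to 1407 CPM in WT, 1630 to 1718 in se-1, 1797 to 1806 in cbp80 and 1549 to 1694 in cbp20. Of the root markers, 2 were higher and 4 lower of 13 tested in se-1, 5 higher and 0 lower of 14 in cbp20, and 5 higher and 0 lower of 13 in cbp80, with 0 lower in both at an unadjusted p under 0.05 and with DESeq2. Over all genes tested, 17.6% were higher and 16.2% lower in se-1, 10.2% and 9.48% in cbp20, and 20.1% and 18.6% in cbp80. The summed level of the root markers ranged from 181 to 186.5 CPM in WT, 185.8 to 206.1 in se-1, 221 to 237 in cbp80 and 196 to 226 in cbp20, and no root marker was at 0 in every library. SCR, the most abundant of them, averaged 67.1 CPM in WT and 79.5 in se-1 and weighs most in that sum. PLT1, PLT2, RHD6, EXP7, COBL9 and WER had lower means in se-1 than in WT, which the sum does not show. The senescence marker SAG12 was at 0 counts in every library except se-1 replicate 3 (0.053 CPM). The part of these shifts in the changes of the antenna and RBCS genes was not tested.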

How the data were processed

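Poly(A) RNA from 12 seedling libraries (WT, se-1, cbp20 and cbp80, 3 each, grouped by the genotype in the labels) was sequenced as paired reads of 150 bp. The authors filtered out rRNA and tRNA with Bowtie2 2.1.0, aligned the rest to TAIR10 with TopHat2 2.1.1 and counted pairs per gene with featureCounts, without strand, multi-mapping pairs or pairs on exons of several genes. The deposited values are counts, not normalized. The deposited DESeq2 1.14.1 tables of the authors' own fold changes and p-values were not used.

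Here edgeR 4.0.16 (R 4.3.3) was run with TMM scaling on genes reaching 10 counts in 3 or more libraries. Each mutant was compared with WT in a quasi-likelihood fit of those 6 libraries, and mutants with each other in 1 fit of 12. P-values were Benjamini-Hochberg adjusted over all genes tested, and SE is the log2 fold change divided by the square root of F. Alternatives were RLE, library size alone, TMM without the 46 genes, other filters, DESeq2 1.42.0, a replicate block, other sample sets and leaving out each library. The fit was tested on simulated data. Library depth of 18565569 to 27068656 pairs gives each library a floor of 3 counts, or 0.111 to 0.162 CPM. Replicates are pools of plants, so p-values measure the spread between pools.

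The rule for the 46 genes goes by name and uses no measured value, but these genes and the other lists were chosen with earlier results of these data known. All 46 are accounted for by class. Named in each comparison were the 3 called genes with the largest rise and the 3 with the largest fall, paralogs that moved differently and, per class, the genes of highest and lowest level, and from the other lists 2 or 3 genes. PORC, CER6, PPH, PAO, SGR1, psbC and psbD were picked, and the root markers named by direction, after their values were seen. Positions, overlaps and upstream windows came from the count table and RefSeq TAIR10.1, whose starts and ends of the 46 genes were the same as in the count table.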

Additional observations from a re-analysis of the deposited data

How the results depend on the processing

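Of the genes called, 24 of 28 in se-1, 10 of 15 in cbp20 and 20 of 26 in cbp80 against WT kept their direction and their call under all 14 alternatives. Between mutants these were 11 of 16 (se-1 against cbp20), 5 of 11 (se-1 against cbp80) and 1 of 4 (cbp80 against cbp20). The count of lower genes in se-1 was 0 with RLE and with a filter of 1 CPM in 3 libraries, and 2 with the replicate block. In cbp80 it was 5 with library size alone. With library size alone LHCB1.3 in se-1 turned to -0.0266, and the median of the 45 genes between cbp80 and cbp20, 0.0165, turned to -0.0127. Leaving out 1 library gave 0 to 2 lower and 24 to 31 higher genes in se-1, 0 lower and 11 to 16 higher in cbp20, 1 to 3 lower and 20 to 25 higher in cbp80, 0 lower and 11 to 21 higher between se-1 and cbp20, 0 lower and 6 to 12 higher between se-1 and cbp80, and 0 to 1 lower and 1 to 7 higher between cbp80 and cbp20, where the median ran from -0.0247 (without cbp20 replicate 3) to 0.0619 (without cbp20 replicate 2) and was -0.000968 without cbp80 replicate 2. The cause of these shifts was not tested, apart from the fewer samples left.

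Same-numbered libraries did not pair: 3 of 18 correlations of their deviations from the group mean passed 0.1 (range -0.094 to 0.188). The fit with the replicate block gave 29 higher genes in se-1, 23 in cbp80 and 18 in cbp20 against WT, and 16, 13 and 5 between the mutants.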

Other observations

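Of 7 chloroplast genes for partners of these proteins, 3 were lower in se-1, 3 in cbp80 and 5 in cbp20, and 0 were higher (0 at an unadjusted p under 0.05 with edgeR, 0 with DESeq2). Over all genes tested, 16.2% were lower in se-1, 18.6% in cbp80 and 9.48% in cbp20. In se-1 DESeq2 called 1 lower. psbA, which encodes the D1 core protein of photosystem II, gave 303, 230 and 208 CPM in the WT libraries and 32.2, 84.3 and 179 CPM in those of se-1, with means of 74.6 in cbp20 and 65.5 in cbp80, and log2 fold changes of -1.92 ± 0.16 (SE) in cbp80, -1.73 ± 0.12 in cbp20 and -1.33 ± 0.40 in se-1. rbcL, the large subunit of Rubisco, fell by 0.86 ± 0.27, 1.15 ± 0.13 and 1.11 ± 0.18 on the log2 scale in se-1, cbp20 and cbp80, while psbC and psbD were called in no mutant. The rbcL libraries of se-1 (30.6, 47.2 and 88.1 CPM) overlapped those of WT (123.4, 96.2 and 80.7 CPM), with se-1 replicate 3 the highest of its group for both psbA and rbcL. The libraries were selected for poly(A) RNA, which most chloroplast RNA lacks, and the summed level in se-1 ran from 406 to 758 CPM between libraries. These values count what passed that selection, and their relation to chloroplast RNA levels was not tested.

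Of 5 chlorophyll breakdown genes, 4 were tested. Among these, 2 were lower and 1 higher in se-1, and 2 lower and 0 higher in each of cbp20 and cbp80. At an unadjusted p under 0.05 with edgeR, 0 were higher in cbp20 and 1 in cbp80, and DESeq2 called 0 in both. Over all genes tested, 16.2%, 9.48% and 18.6% were lower in se-1, cbp20 and cbp80. PPH, the pheophytinase, was lower in all 3 mutants (-0.27 ± 0.06, -0.23 ± 0.07 and -0.24 ± 0.06 in se-1, cbp20 and cbp80). NYC1, a chlorophyll b reductase, was lower in se-1 (-0.38 ± 0.07) and cbp80 (-0.28 ± 0.07).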
